A study of Drosophila melanogaster with 8 samples.

Results

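The respiratory chain and the ATP synthase were followed in fly heads through 8 nuclear genes that could be matched by name to probes of the array. Each has an identifier in the array files that a RefSeq gene table pairs with a symbol, and they were chosen with earlier results of these data known. The listed complex I gene ND-24L also has such an identifier, but its probe gave no level. The genes followed make up 8 of the 353 genes named in this way, and they had 9 of the 32162 probes. Complex I was represented by ND-23, ND-B14.7 and ND-B17.2, the assembly of complex II by Sdhaf3, complex IV by COX4, COX5A and COX5BL, and complex V by ATPsynbeta. No gene of complex III or cytochrome c had a named probe.

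All samples came from adult Drosophila melanogaster of the genotype w, elav-GAL4/+; UAS-dTrpA1/+, in which elav-GAL4 drives the warmth-gated cation channel dTrpA1 in neurons. The 4 control_23C samples stayed at 23 °C, and the 4 activated_31C samples were held at 31 °C for 1 h before dissection. Each sample was a pool of 20 heads of both sexes, so it held RNA of all head tissues and not of neurons alone. The study asked which transcripts respond to induced neural activity. Both groups carried the driver and the channel, and no sample was warmed without them, so warmth and neural activity cannot be told apart. Each group also had a slide of its own, which held its 4 arrays, and the effect of the slide cannot be told apart from that of the group.

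In mitochondria, complexes I and II pass electrons from NADH and succinate into the chain, and complex IV hands them to oxygen. The proton gradient built along the way drives complex V, which makes ATP. Neurons depend heavily on this route to restore ion gradients after firing. Most subunits are encoded in the nucleus, and a few core subunits of complexes I, III, IV and V by the mitochondrial genome. Each complex is assembled with the help of dedicated factors that are not part of the finished enzyme.

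Levels are given as the log2 of the processed signal minus the array's 75th percentile, and differences as activated_31C minus control_23C on that scale. Between 22028 and 24430 probes were well above background on an array, and 22480 probes were tested with limma, with p-values adjusted over all of them. Every array measured all 9 probes well above background. The 8 arrays were not alike in all respects. On control_23C replicates 3 and 4, 382 and 380 probes read more than 2 log2 units under their own median, against 0 to 192 on the other arrays. On control_23C replicate 1 the spots of 1 probe disagreed more often than elsewhere, which is described with COX5A. Of 50 cell type markers looked for, 2 had a named probe, both of neurons. Sh, a potassium channel gene, lay between 0.62 and 0.76 in control_23C and between 0.43 and 0.59 in activated_31C (difference −0.16, limma adjusted p = 0.0417). The channel gene slo differed by −0.0970 (limma adjusted p = 0.222). Of 14 genes of the heat response, CG7130 and lncRNA:Hsromega were measured, and both rose. CG7130 rose by 3.43, and the 4 probes of lncRNA:Hsromega by 0.77 to 1.24. The part of warmth or of a change in neurons in the results below was not tested.

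Over the 9 probes, 2 were higher, 1 was lower and 6 did not pass an adjusted p of 0.05 in limma. That background was high, since 43.2% of all tested probes passed, 19.2% higher and 24.0% lower, so the count for these genes is no result in itself. Of all calls 44.5% were higher, against 34.4% with quantile normalization and 52.4% with median centring, so the balance of directions depended on the scaling. The median difference was 0.0401 over the 9 probes and −0.0075 over all probes. ATPsynbeta and COX5BL rose, Sdhaf3 was lower on 1 of its 2 probes, and the 3 complex I genes differed by at most 0.0401 in either direction. The median difference by complex was −0.0098 for the 3 probes of complex I and −0.18 for the 2 of Sdhaf3. It was 0.25 for the 3 of complex IV and 0.59 for the 1 of complex V. The complex IV value is that of COX5A, which was 0.0279 without control_23C replicate 1, an array on which its 2 spots disagreed. The Sdhaf3 value includes a probe whose 2 spots disagreed on that array as well.

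**Figure D1:**
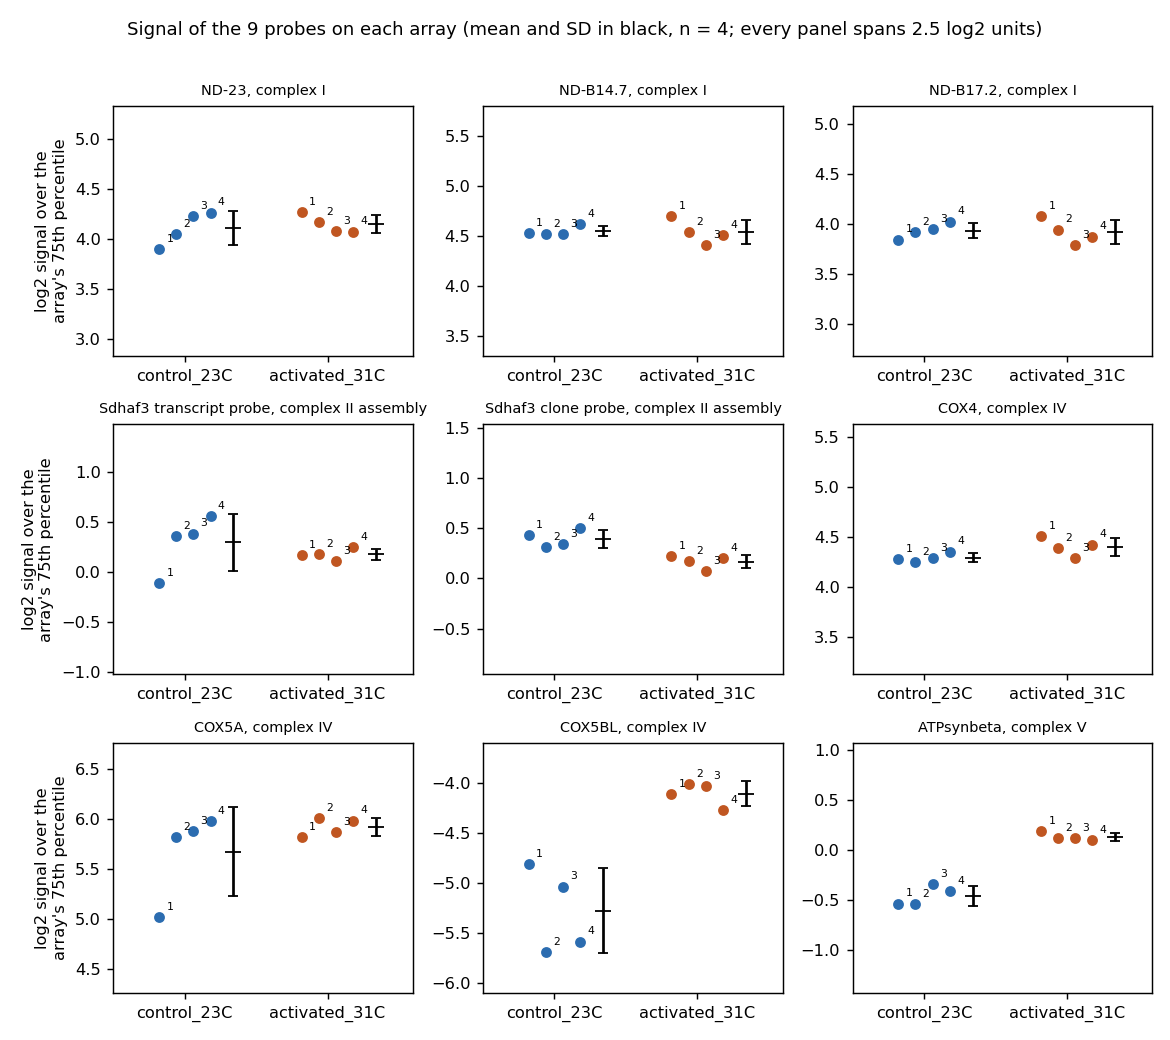
Log2 signal over the array's 75th percentile (y axis) of each of the 9 probes in control_23C (blue) and activated_31C (orange), 1 point per array with its replicate number, and the mean with the SD in black (n = 4). Every panel spans the same number of log2 units, and the groups stand clear of each other for COX5BL, ATPsynbeta and the Sdhaf3 clone probe.

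None of the complex I genes passed the test. ND-23, the fly homologue of the iron-sulfur subunit NDUFS8 that lies on the electron path, read 3.89, 4.05, 4.22 and 4.26 in control_23C and 4.26, 4.17, 4.08 and 4.07 in activated_31C. The groups overlapped, and the lowest value was that of control_23C replicate 1. Its difference was 0.0401 (95% interval −0.17 to 0.25, limma adjusted p = 0.755).

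ND-B14.7, the homologue of the accessory membrane subunit NDUFA11, read 4.53, 4.52, 4.52 and 4.62 in control_23C and 4.70, 4.54, 4.40 and 4.51 in activated_31C. The control arrays spanned 0.0993 and lay inside the range of the activated arrays. ND-B17.2, the homologue of the accessory subunit NDUFA12, read 3.84, 3.91, 3.95 and 4.02 in control_23C against 4.07, 3.94, 3.79 and 3.87 in activated_31C. Here too the groups overlapped throughout. The difference was −0.0098 for ND-B14.7 (95% interval −0.16 to 0.14) and −0.0129 for ND-B17.2 (95% interval −0.18 to 0.15), with limma adjusted p-values of 0.920 and 0.903.

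With this scaling, the intervals of the 3 complex I genes reach from a level 11.6% lower to one 19.2% higher. For these genes changes within that range were not settled. The intervals do not cover the choice of scaling, which is described below, so larger changes are not settled by them either. The log2 ratio of ND-B14.7 to ND-B17.2 within an array averaged 0.620 ± 0.018 (SD, n = 4) in activated_31C, where each gene alone varied by an SD of 0.12. In control_23C it averaged 0.617 ± 0.051, no less variable than ND-B14.7 alone, whose SD there was 0.0480. For both genes activated_31C replicate 1 was highest and replicate 3 lowest of their group.

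The complex I probes were among the brightest of the array, and there the scaling of the arrays mattered. The 817 probes at least as bright as ND-B17.2 had a median difference of 0.15, and 22.8% of them passed the threshold. With quantile normalization, which forces the arrays to one distribution, the median of these bright probes was −0.0711, and ND-B14.7 (−0.23, limma adjusted p = 0.0275) and ND-B17.2 (−0.22, limma adjusted p = 0.0322) passed as lower. ND-23 was at −0.18 (limma adjusted p = 0.149). Relative to the median of the bright probes, all 3 lay lower by either scaling. This was not particular to complex I, as COX4 lay lower too (0.11, and −0.12 with quantile normalization). COX5A lay higher by both (0.25 and 0.0281).

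A further complex I gene of the list, ND-24L, had a probe that was not well above background on any array, so it gave no level. Of the 118 genes listed for the respiratory chain, its assembly and the ATP synthase, 9 had a named probe and 8 were tested, which are the genes described here. Other probes of the same complexes may lie among the targets that could not be named.

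Sdhaf3 encodes an assembly factor that helps the iron-sulfur subunit of succinate dehydrogenase to mature. It was the 1 gene with more than 1 probe. The probe listed for a cDNA clone, with 1 spot per array, read 0.44, 0.31, 0.34 and 0.51 in control_23C and 0.22, 0.18, 0.0770 and 0.20 in activated_31C. All control arrays lay above all activated arrays, with a gap of 0.0882 between the nearest, as was the case in one direction or the other for 42.8% of all tested probes. It fell to 0.853 of the control level (difference −0.23, SE 0.0586, limma adjusted p = 0.0153, n = 4 per group), and fewer cells that express the gene and less RNA per cell cannot be told apart in whole heads.

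The second Sdhaf3 probe, listed for the RefSeq transcript and spotted at 2 places, read −0.10, 0.36, 0.39 and 0.56 in control_23C and 0.17, 0.18, 0.11 and 0.25 in activated_31C. Control_23C replicate 1 stood below all other arrays. Its difference was −0.12 (95% interval −0.43 to 0.19, limma adjusted p = 0.493). On that array the first spot read −0.638 and the second 0.432, whereas on the other 7 arrays the spots differed by 0.001 to 0.302. Without control_23C replicate 1 the difference was −0.26 (limma adjusted p = 0.0195), and with the brighter spot of each probe it was −0.22 (limma adjusted p = 0.0294), a setting added after the data were seen. The clone probe was at −0.22 (limma adjusted p = 0.0376) and −0.23 (limma adjusted p = 0.0149) under the same settings. Leaving out the controls 3 and 4 and activated_31C replicate 3, where 382, 380 and 192 probes read more than 2 log2 units under their own median, put the clone probe at −0.17, short of the threshold (limma adjusted p = 0.153), and the transcript probe at 0.0731 (limma adjusted p = 0.749). The controls then consisted of replicates 1 and 2. Replicate 1, the array with the dim spot, was kept although 185 probes read more than 2 log2 units under their own median on it.

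**Figure D2:**
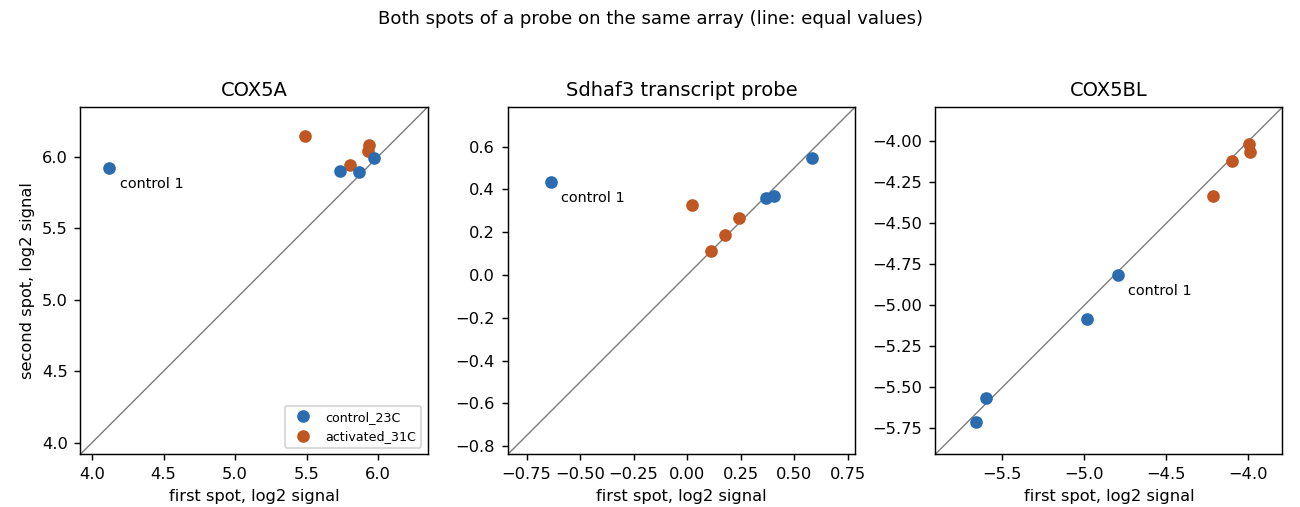
Log2 signal over the array's 75th percentile of the first spot (x axis) and the second spot (y axis) of the 3 probes with 2 spots per array, with control_23C in blue, activated_31C in orange and a line of equal values. Control_23C replicate 1 lies far off the line for COX5A (4.118 against 5.917) and for the Sdhaf3 transcript probe (−0.638 against 0.432), and on it for COX5BL.

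Cytochrome c oxidase, complex IV, is the last step of the chain, and its 3 genes did not behave alike. COX4, a nuclear-encoded subunit that in mammals joins the core subunit COX1 early in assembly, read 4.28, 4.25, 4.29 and 4.35 in control_23C and 4.50, 4.39, 4.29 and 4.42 in activated_31C. Activated_31C replicate 3 lay within the control range and the other 3 arrays above it. The difference was 0.11 (95% interval −0.0193 to 0.24, limma adjusted p = 0.152). It was −0.12 with quantile normalization (limma adjusted p = 0.109).

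COX5A, the subunit whose loss in the fly mutant tenured halts dividing cells before they enter the S phase, read 5.02, 5.82, 5.88 and 5.98 in control_23C and 5.82, 6.01, 5.87 and 5.98 in activated_31C. Except for control_23C replicate 1, the arrays of both groups shared a range. The difference was 0.25 (95% interval −0.23 to 0.72, limma adjusted p = 0.366), and it dropped to 0.0279 without that replicate. Its spots there read 4.118 and 5.917, while on the other 7 arrays they differed by 0.021 to 0.659, the most on activated_31C replicate 1. The 76 other spots within 5 rows and columns of the dim spot, all of probes well above background on every array, had a median deviation of 0.019 from the other controls. Of these, 10 lay over 0.5 lower (13.2%), against 5.37% of all such spots on that array. Around the dim spot of the Sdhaf3 transcript probe there, 5 of 78 did (6.41%), and the cause of either dim spot was not tested. Over the 7327 such probes with several spots, the spots differed by over 0.5 for 7.45% on control_23C replicate 1, against 0.287% to 1.67% on the other 7 arrays. With the brighter spot, the COX5A difference was 0.13 (limma adjusted p = 0.0967).

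COX5BL, named as a paralogue of the subunit COX5B, gave the largest difference of the 8 genes. It read −4.81, −5.69, −5.03 and −5.58 in control_23C and −4.11, −4.01, −4.03 and −4.27 in activated_31C. The lowest activated array lay 0.53 above the highest control, and the controls spread more widely than the activated arrays, with ranges of 0.88 and 0.27. The rise was 1.17 (SE 0.199, 95% interval 0.71 to 1.64, limma adjusted p = 0.00223, n = 4 per group), or 2.25-fold. A rise of at least 2-fold that passed the threshold was found for 4.04% of all tested probes.

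This rise rests on a dim signal. The processed intensities of COX5BL were 191.4, 102.2, 162.3 and 102.9 in control_23C and 293.5, 295.5, 315.2 and 238.5 in activated_31C, while the median local background of the arrays was 131.0 to 136.0 units before subtraction. Its 2 spots agreed within 0.116 on every array, so the spread among the controls was between arrays and not between spots. Normexp background correction adds an offset, which shrinks dim differences, and it was run here on the median spot signal. With it the rise was 0.68 (SE 0.242) and missed the threshold (limma adjusted p = 0.0658). The cause of the smaller rise was not tested. Leaving out 1 array at a time gave 1.04 to 1.33, with a highest limma adjusted p of 0.00833. In the gene table COX5BL overlaps Trmt6, and as the table gives no strand, the 2 genes cannot be separated as the source of the signal.

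ATPsynbeta encodes the catalytic beta subunit of the ATP synthase, at which ADP and phosphate are joined. It read −0.54, −0.55, −0.35 and −0.41 in control_23C and 0.18, 0.11, 0.12 and 0.0987 in activated_31C. The groups were separated by 0.44, more than the range of either group (0.20 and 0.0848). The rise was 0.59 (SE 0.0568, 95% interval 0.46 to 0.72, limma adjusted p = 0.000129, n = 4 per group), or 50.5%. It passed under all 22 other settings, at 0.53 to 0.68, with the lowest value after spike-in centring and the highest with 3 arrays left out. Several of these settings change only which probes are tested or how the spread is estimated. They could not move the difference from 0.59. A larger absolute difference was found for 16.2% of all tested probes. ATPsynbeta overlaps CG11076 in the gene table, which leaves its rise uncertain as to its gene as well. The gene has 3 transcripts there, and its probe is listed for 1 of them.

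**Figure D3:**
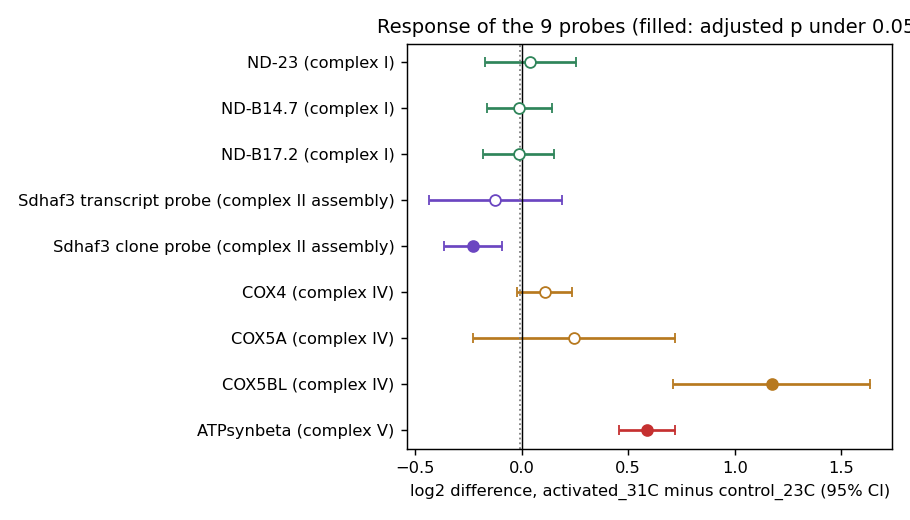
Log2 difference (activated_31C minus control_23C, x axis) of each probe with its 95% interval, coloured by complex, with filled points for an adjusted p under 0.05 and a dotted line at the median of all tested probes. Only ATPsynbeta (0.59), COX5BL (1.17) and the Sdhaf3 clone probe (−0.23) have filled points.

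Whether the genes responded unequally was tested on the log2 ratio of 2 genes within an array. Such a ratio does not change when each array is scaled by 1 factor, but it does under quantile normalization. For all 28 pairs the groups were compared by a two-sided exact permutation test over the 8 arrays, whose 70 regroupings allow no p below 0.0286. That value was reached by 15 pairs, but adjusted over the 28 pairs it became 0.0533, so 0 pairs passed. The ratio of ATPsynbeta to each complex I gene was higher in activated_31C by 0.55 (ND-23) and 0.60 (ND-B14.7 and ND-B17.2), with the smallest p in each case. In this test the smallest p and a lack of overlap between the groups are the same finding. The ratio of COX5BL to COX4, of the same complex, was higher by 1.06 (SE 0.234, exact p = 0.0286, adjusted p = 0.0533). ATPsynbeta and Sdhaf3 moved apart by 0.82 (SE 0.0696, exact p = 0.0286, adjusted p = 0.0533). COX5BL and ATPsynbeta, the 2 genes that rose, differed by 0.58 (SE 0.222, exact p = 0.0857, adjusted p = 0.133).

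Within complex I the pairs differed by 0.0031 to 0.0530, with exact p-values of 0.4 to 0.971. That does not show that the genes responded alike. With quantile normalization, a setting added for the pairs after the data were seen, 11 pairs reached the smallest p and 0 passed (adjusted p = 0.0727, exact permutation test). The ratio of ATPsynbeta to the complex I genes was then higher by 0.78 to 0.83, and that of ND-B14.7 to Sdhaf3 by 0.0119 in place of 0.22. With the brighter spot of each probe, a setting chosen after seeing the data, 18 pairs reached the smallest p and passed, at an adjusted p of 0.0444 (exact permutation test). As all pairs at the smallest p share it, passing depended on how many pairs reached it. The response of COX4 minus that of ATPsynbeta, for example, was −0.4808 as reported and −0.4810 with the brighter spot. The pairs also share genes and are not independent, so their number passing is no result in itself.

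**Figure D4:**
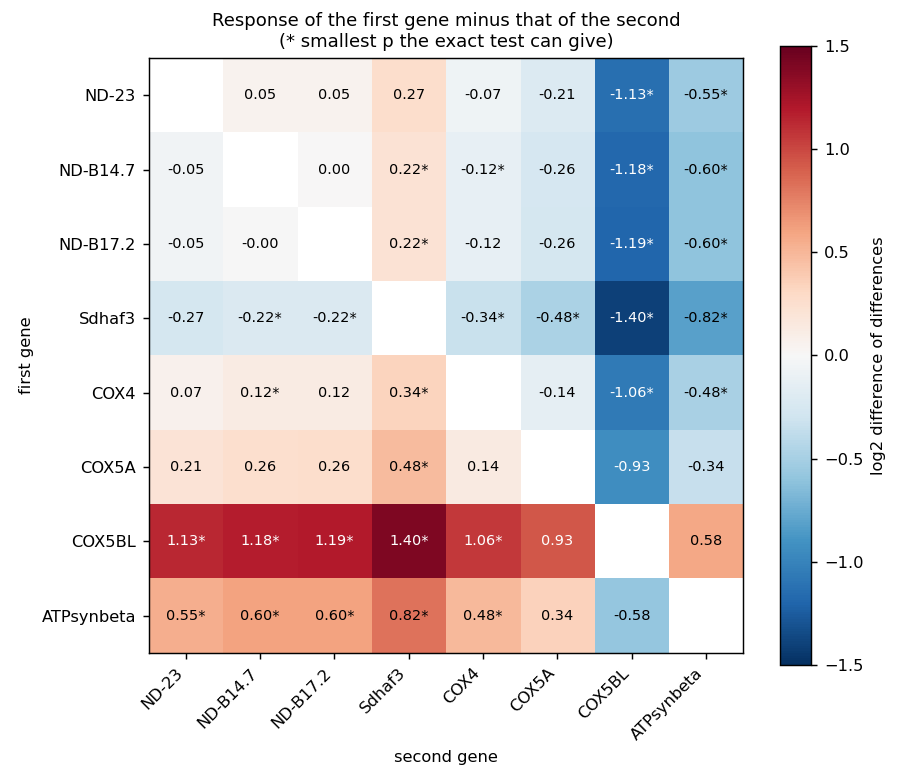
Difference of response for every pair of genes, as the log2 change of the first gene (rows) minus that of the second (columns), at the brightest probe of each gene. Asterisks mark pairs at the smallest p of the exact test (0.0286); COX5BL and ATPsynbeta stand above the complex I genes, Sdhaf3 and COX4 in each such pair, all with asterisks.

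The pattern over the 8 arrays was compared with that of 252 other named genes by Pearson's r, as a description that follows the group difference where there is one. ATPsynbeta was most like mbf1, a transcription coactivator gene (r = 0.984), which rose by 1.69. COX5BL was most like lncRNA:CR32194 (r = 0.957), which rose by 1.22, and next CG32112 (r = 0.935) and SK (r = 0.935). Sdhaf3 was most like Arpc3A, a gene of the actin-nucleating Arp2/3 complex (r = 0.940), which fell by 0.39. For COX5A it was plum (r = 0.992), for ND-23 lncRNA:sphinx (r = 0.899), for COX4 CG1674 (r = 0.857), for ND-B17.2 Acp95EF (r = 0.822) and for ND-B14.7 CG4210 (r = 0.748), of which none passed the threshold. COX5A read 5.02 on control_23C replicate 1, where its 2 spots disagreed, and 5.82 to 6.01 on the other arrays. Its r therefore rests mostly on that array.

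In the gene table, COX4, COX5BL and ND-B17.2 lie on chromosome arm 2L, ND-B14.7 on 2R, COX5A, ND-23 and Sdhaf3 on 3R, and ATPsynbeta on chromosome 4. COX5A overlaps glo and ND-23 overlaps mir-4911 there, and Sdhaf3 overlaps a gene that is not reported here. As for COX5BL and ATPsynbeta, the table alone does not settle which of the overlapping genes gave the signal. COX4, ND-B14.7 and ND-B17.2 overlap no other gene. Where in the transcripts the probes bind was not analysed here.

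**Figure D5:**
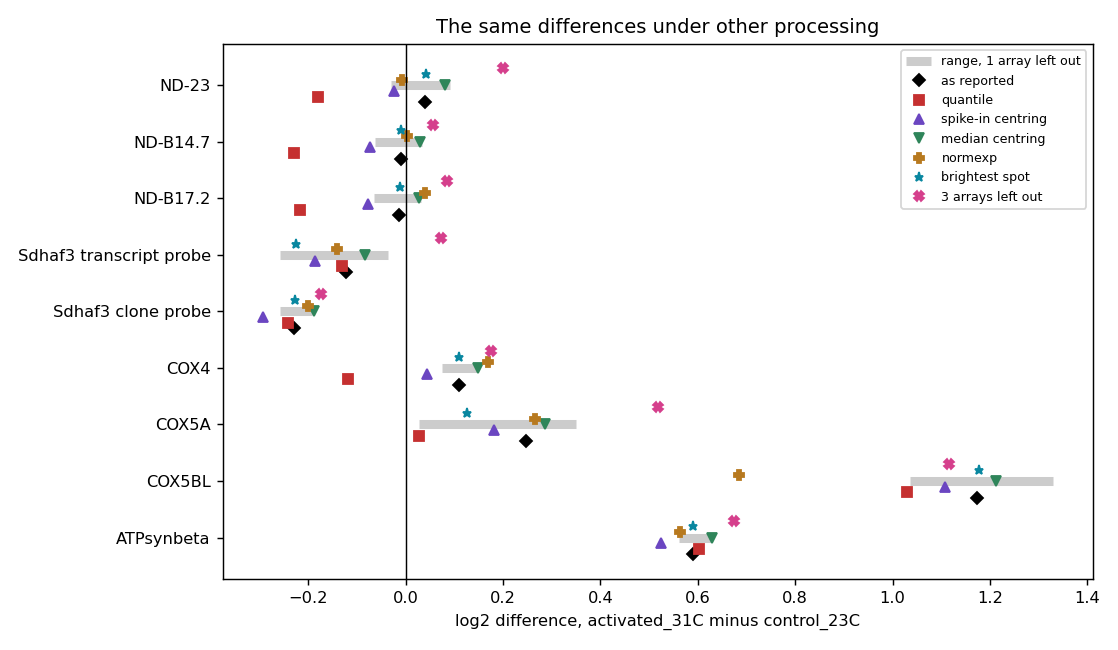
Log2 difference (activated_31C minus control_23C, x axis) of each probe as reported and under 6 other settings, with a grey bar for the range when 1 array is left out at a time. Quantile normalization places the complex I genes and COX4 below 0, normexp correction lowers COX5BL to 0.68, and ATPsynbeta stays between 0.53 and 0.68.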

How the data were processed

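RNA of 8 head pools, 4 per group as the sample titles give it, was labelled with Cy3 from 0.4 ug per sample and hybridised to 1-colour Agilent arrays, per the labels' protocols. The authors deposited spot intensity values. Per the file headers these come from version 10.7.3.1 of Agilent Feature Extraction, which subtracts background within an array, on a design of build dm3, while the submitters' processing notes give version 9.1.3.1. The table of log2 values that the authors deposited was used as an alternative, and how it was made is not given in the sources used here. Its columns correlated with the scanner deviations from each probe's median at 0.994 to 1.000, with column medians of −0.0621 to 0.0379, so its scale, centring and direction followed from that match.

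Control spots and 559 outlier spots were left out, and the log2 signal was averaged over a probe's spots and scaled by each array's 75th percentile (4616.1 to 5356.7 units). Probes were tested if every array of either group read them as well above background and at least 6 arrays measured them. Names came from the RefSeq gene table of Release 6, by accession, synonym or cDNA clone name (418 probes with 1 gene, 2 with several, 31742 with none). Coordinates were not used, since the builds differ. limma 3.58.1 in R 4.3.3 (lmFit, eBayes, group as the only term) gave two-sided tests with Benjamini-Hochberg adjustment and a threshold of 0.05. SE and intervals are limma's moderated ones, except for pairs of genes, where the SE comes from the 4 ratios per group. On simulated data for this comparison with 22480 probes, of which 200 were changed, 61.2% of 1.41-fold, 85.1% of 2-fold and 97% of 4-fold changes were called, with 7 false calls. The simulated noise was independent between probes, and far fewer probes were changed than the 9711 called in the real data. These rates may therefore not hold for the real comparison.

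The series' design text calls the 4 samples per condition independent, and no 2 arrays held identical values. Genes named are the 8 members, other listed genes of the pathway with a probe, overlapping genes, and by the fixed rule the gene most alike across arrays (3 for the member with the largest difference). A further overlapping gene is not reported here. Members and lists were chosen with earlier results of these data known. The number of arrays limits the precision. Normexp used the median spot signal.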

Additional observations from a re-analysis of the deposited data

Results flagged for a closer look

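In 2 of the 18 groups of 4 arrays examined for these probes, 1 array stood apart, as measured by its distance to the nearest other array divided by the range of the group. By chance about 0.9 such groups would be found, at 1 in 20. For COX5A in control_23C the ratio was 0.830, with replicate 1 lowest at 5.02, the array on which its 2 spots disagreed. For ND-B14.7 in control_23C it was 0.888, with replicate 4 highest at 4.62, in a group that spanned 0.0993.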

How the results depend on the processing

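Precision was limited by 4 arrays per group and, for 7 of the 8 genes, by a single probe. The number of changed probes was 9711 as reported, 8375 to 9309 when 1 array was left out, and 5416 without 3 arrays (control_23C replicates 3 and 4 and activated_31C replicate 3). Of these 1091 changed at least 2-fold, and 641 with normexp correction. Among the 9 probes 3 were called, and 5 with quantile normalization. The calls of COX5BL (normexp) and of the Sdhaf3 clone probe (without the 3 arrays) were lost, as given above. Direction changed only for differences that had not passed. For ND-23 the difference turned to −0.0077 with normexp, −0.18 with quantile normalization and −0.0242 with spike-in centring, and ran from −0.0310 to 0.0919 when 1 array was left out. ND-B14.7 turned to 0.0036 with normexp, 0.0301 with median centring and 0.0565 without the 3 arrays (−0.0627 to 0.0345 when 1 array was left out). ND-B17.2 turned to 0.0401, 0.0269 and 0.0848 under the same settings (−0.0646 to 0.0312). COX4 turned to −0.12 with quantile normalization, and the Sdhaf3 transcript probe to 0.0731 without the 3 arrays. With normexp the ratios of ND-23 to ND-B14.7 (−0.0113) and ND-B17.2 (−0.0478) and of ND-B14.7 to ND-B17.2 (−0.0366) changed direction as well, as did the last with quantile normalization (−0.0125). Pairs of genes that passed numbered 0 as reported, with quantile normalization, with normexp, with the authors' table and with all probes averaged, and 18 with the brighter spot, a setting chosen after seeing the data. The cause of these shifts was not tested.

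The sample titles share replicate numbers. Deviations of same-numbered arrays correlated at 0.206, 0.093, 0.649 and −0.282, and those of differently numbered arrays at −0.646 to 0.476. So few values cannot settle whether the numbers pair the samples. With the replicate block 8740 probes were called, and the calls of the 9 probes were as reported.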
